A study of Mus musculus with 2 samples.

Results

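HOX, MEIS and PBX genes encode homeodomain transcription factors, and 9 of them were examined here in hematopoietic stem and progenitor cells (HSPCs): Hoxa5, Hoxa7, Hoxa9, Hoxa10, Hoxb4, Hoxb5, Meis1, Pbx2 and Pbx3. They were chosen by name as homeobox genes of stem cell self-renewal, out of 22911 genes that the array probes could be assigned to. Lineage-negative Kit+ Sca-1+ (LKS+) cells from the BM of WT mice were propagated in serum-free medium with SCF at 100 ng/ml and IL-6 and IL-3 at 10 ng/ml, and were then co-cultured for 24 h with 150 μg/ml of extracellular vesicles (EVs) from the spleen (SP) of CML mice or of normal control mice. CML was induced in the donors by transplantation of LKS+ cells that carried BCR-ABL in a retrovirus. The methods add that the CML donors of these EVs had been irradiated, which the sample labels do not mention, and the leukemia of the donors cannot be told apart from their irradiation. WT mice in the study were males of the BALB/c and C57BL/6J strains aged 6 to 8 weeks at purchase, and neither the strain used nor the number of pooled animals is given for these cultures. RNA of each culture was hybridized to 1 one-color Agilent array, so that there were 2 arrays and no replicates. All values describe these 2 cultures, and no test was possible.

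HOX proteins bind DNA weakly and with little selectivity on their own, and gain both by forming complexes with PBX and MEIS proteins, which belong to the TALE class of homeodomain factors. In blood formation the HOXA and HOXB genes and Meis1 are active in stem and progenitor cells and are turned down as the cells mature. Sustained HOXA9 and MEIS1 together drive myeloid leukemia in mice.

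Of the 9 genes, 8 gave a signal well above background on both arrays, and 6 of these were lower with CML EVs than with control EVs: the 4 HOXA genes, Meis1 and Pbx3. Hoxb4 and Pbx2 were higher. At the probe used for each gene, Hoxa10 differed most, at 1.41-fold lower. It was the only one whose 2 signals there differed by at least 25% of the lower one, hereafter called past 25%. The dimmer probe of Meis1 was 1.35-fold lower. Among the 13409 genes that both arrays measured well above background, 48.0% were lower and 52.0% higher, and 5.25% were lower and 5.00% higher past 25%. The median log2 ratio (CML EVs over control EVs) was -0.11 over the 8 genes and 0.01 over all 13409. The differences were therefore small, and most lay inside the spread of the array as a whole. At a threshold of 1.1-fold, 3 of the 8 were lower (Hoxa5, Hoxa10 and Meis1) and 1 was higher (Hoxb4), where 17.2% of all genes were lower and 17.3% higher by as much. None of the 8 reached 1.5-fold, as did 1.18% of all genes on the lower and 1.52% on the higher side.

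The genes were represented by 14 probes of 1 spot each, with 2 probes for 5 genes and 1 probe for 4. Signals are background-subtracted intensities scaled to the same mean on both arrays, in arbitrary units, and signals of different probes are not comparable. An error (±) beside a log2 ratio is from the scanner's own error model, carried over from both spots, and is not printed for every gene. This error was 0.20 at its smallest, and only 19.0% of the 19619 named probes well above background differed by more than their error, and 3.99% by more than double the error. Probes printed repeatedly on the arrays gave a smaller technical spread, with a median SD of the log2 ratio of 0.034 over 272 probes with a mean log2 signal of at least 8 and of 0.16 over 11 dimmer probes. Neither error covers differences between cultures or EV preparations.

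**Figure D1:**
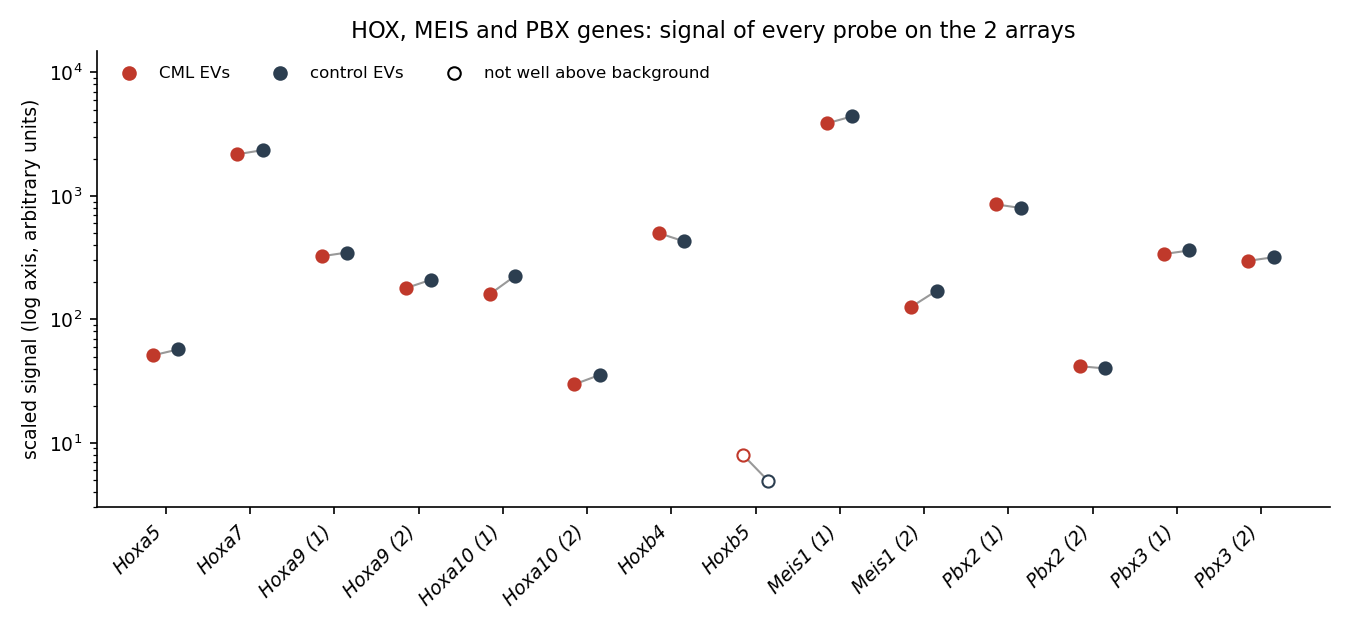
Scaled signal (log axis, arbitrary units) of each of the 14 probes with CML EVs (red) and control EVs (dark blue), joined by a line; numbers in parentheses tell the probes of 1 gene apart. Open points are not well above background, which was so for Hoxb5 on both arrays, and the line of Hoxa10 (1), from 161 with CML EVs and 226 with control EVs, is the steepest among the filled points.

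The RefSeq start regions of the genes with the largest differences are shown here as the regulatory sequence nearest to the measured transcripts. RefSeq promoter entries (assembly GRCm38.p6) matched 7 of the 9 genes, with 2 start sites for Hoxa10 and so 8 regions. For Hoxa10, the gene with the largest fold among the lower ones, for Meis1, the next lower, and for Hoxb4, the higher HOX gene, the 250 bases before each start are printed 5′ to 3′ on the gene's strand. Capitals mark TAAT, the core of homeodomain binding, on either strand (ATTA on the other).
Hoxa10, upstream start, chr6:52240855-52241104, minus strand: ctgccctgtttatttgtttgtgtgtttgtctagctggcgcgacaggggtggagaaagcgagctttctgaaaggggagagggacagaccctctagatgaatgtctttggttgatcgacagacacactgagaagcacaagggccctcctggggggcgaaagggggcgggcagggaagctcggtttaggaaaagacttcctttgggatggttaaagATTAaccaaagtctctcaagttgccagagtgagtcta
Hoxa10, downstream start, chr6:52234940-52235189, minus strand: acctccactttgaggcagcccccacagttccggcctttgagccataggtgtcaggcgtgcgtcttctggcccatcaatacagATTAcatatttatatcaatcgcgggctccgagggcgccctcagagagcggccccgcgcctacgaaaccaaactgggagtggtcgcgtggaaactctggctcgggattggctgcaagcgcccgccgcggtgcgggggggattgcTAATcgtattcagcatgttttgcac
Meis1, chr11:19018970-19019219, minus strand: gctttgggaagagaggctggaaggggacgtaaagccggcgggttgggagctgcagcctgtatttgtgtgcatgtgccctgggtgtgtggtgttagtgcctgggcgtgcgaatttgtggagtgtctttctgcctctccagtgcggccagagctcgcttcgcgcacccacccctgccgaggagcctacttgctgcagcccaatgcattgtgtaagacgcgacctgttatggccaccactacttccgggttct
Hoxb4, chr11:96318017-96318266, plus strand: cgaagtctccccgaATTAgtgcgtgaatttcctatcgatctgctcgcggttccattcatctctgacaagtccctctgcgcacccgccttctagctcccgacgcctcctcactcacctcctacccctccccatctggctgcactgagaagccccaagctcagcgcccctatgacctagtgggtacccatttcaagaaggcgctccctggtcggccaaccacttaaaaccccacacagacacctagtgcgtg

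The upstream Hoxa10 region held 1 TAAT core, the downstream one 2, the Hoxb4 region 1 and the Meis1 region none. Over the 8 regions, 5 held a TAAT core, those of Hoxa5, Hoxa9, Hoxb4 and both of Hoxa10, against 54.9% of 32851 mouse promoter regions of the same length. The MEIS core TGACAG and the composite PBX and HOX sequence TGATNNAT, searched on both strands, were in none of the 8, and in 15.9% and 7.68% of all regions. CG dinucleotides, which the CXXC domain of the HOX regulator MLL recognizes when they are unmethylated, numbered 7 and 20 in the upstream and downstream Hoxa10 regions, 13 for Meis1 and 14 for Hoxb4, where the median of all regions was 6. The number was 28 for Hoxa5, 27 for Pbx2, 7 for Hoxa7 and 3 for Hoxa9. These are descriptions of letters in 1 window per start, and neither binding nor methylation was measured.

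Hoxa10, which when overexpressed expands progenitors and blocks their maturation in mice, had a signal of 161 with CML EVs and 226 with control EVs, a log2 ratio of -0.49 ± 0.21. Its second, dimmer probe gave 29.8 with CML EVs and 35.5 with control EVs, a log2 ratio of -0.25 ± 0.29. Both probes were lower with CML EVs, the first by more than double its error and the second within it, and the first ratio was also beyond the median SD of 0.16 of dim repeated spots. Of all genes, 1.98% had a lower ratio than Hoxa10, and of the 2623 other genes with a mean signal within 2-fold of its own, 1.37%. With normexp background correction and quantile normalization its log2 ratio was -0.31, and then no member was past 25%.

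Hoxa9, needed for normal stem cell function and myeloid and lymphoid output in mice, had 325 with CML EVs and 348 with control EVs at its brighter probe, a log2 ratio of -0.10 ± 0.20. The dimmer probe had 179 with CML EVs and 210 with control EVs, a log2 ratio of -0.23 ± 0.21. Both lay on the lower side, and the gene ranked inside the bulk of the array, with 23.0% of all genes below it. Hoxa7, a frequent companion of Hoxa9 in leukemias with MLL fusions, had 2177 with CML EVs and 2351 with control EVs, a log2 ratio of -0.11 ± 0.20. Of the 3321 genes of like signal, 9.42% had a lower ratio. Hoxa5, which promotes myeloid at the expense of erythroid maturation in human progenitors, was dim, with 51.2 with CML EVs and 57.2 with control EVs, a log2 ratio of -0.16 ± 0.23. That difference was about the size of the median SD of dim repeated spots. Of 2100 genes of like signal, 35.9% had a lower ratio than Hoxa5.

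Meis1, the TALE cofactor of HOXA9 and required for the upkeep of hematopoietic stem cells, was lower with CML EVs at both of its probes. The probe for one RefSeq transcript had 3877 with CML EVs and 4421 with control EVs, a log2 ratio of -0.19 ± 0.20 or 1.14-fold lower. The probe for another transcript had 127 with CML EVs and 171 with control EVs, a log2 ratio of -0.43 ± 0.21 or 1.35-fold lower. The brighter probe was used for the gene after the study's rule. Of all genes 12.1% had a lower ratio than this probe, and of the 2592 genes of like signal 2.31%. The part of the transcript that each probe binds is not given in the files.

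Pbx3, a PBX factor that works with HOXA9 and MEIS1 in leukemia, had 339 with CML EVs and 362 with control EVs at one probe and 298 with CML EVs and 319 with control EVs at the other. The log2 ratios of its 2 probes were -0.09 ± 0.20 and -0.10 ± 0.21. The probes gave nearly the same small ratio, within its error. Pbx2, a widely expressed PBX factor whose loss alone is tolerated in mice, had 856 with CML EVs and 798 with control EVs, a log2 ratio of 0.10 ± 0.20, and its dim second probe had 41.7 with CML EVs and 40.1 with control EVs, a log2 ratio of 0.06 ± 0.26. It lay on the higher side, with 76.3% of all genes below it.

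Hoxb4, which expands hematopoietic stem cells in culture when overexpressed, was the HOX member that went the other way. Its only probe had 500 with CML EVs and 429 with control EVs, a log2 ratio of 0.22 ± 0.20 or 1.17-fold higher, and 91.0% of all genes and 92.4% of 3312 genes of like signal had a lower ratio. Hoxb5, which marks long-term stem cells in mouse BM, had 7.99 with CML EVs and 4.92 with control EVs and was not well above background on either array, where the lowest signals well above background were 13.6 with CML EVs and 12.9 with control EVs. No ratio is given for it. Its probe shows only that Hoxb5 was not measurable in these cultures.

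**Figure D2:**
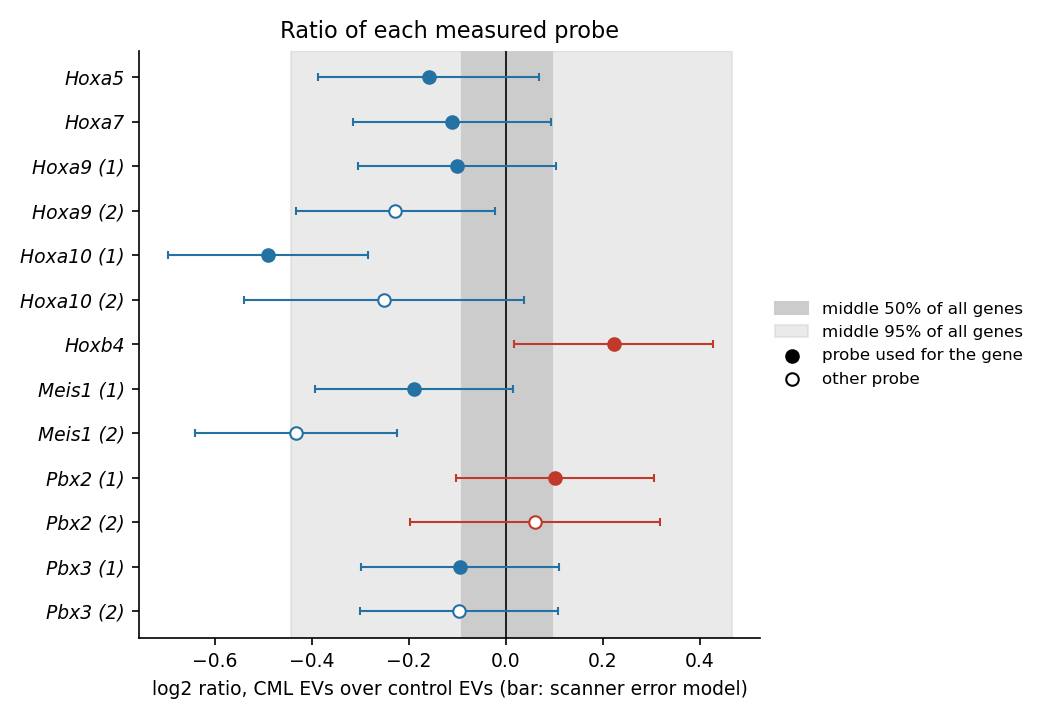
log2 ratio (CML EVs over control EVs) of the 13 probes well above background on both arrays, with the scanner's error as bars, against the middle 50% (dark grey) and middle 95% (light grey) of all 13409 genes. Filled points are the probes used for a gene; 10 of 13 lie left of 0, and the bars of Hoxa10 (1), Meis1 (2) and Hoxa9 (2) on the left and of Hoxb4 on the right do not reach 0.

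Over probes rather than genes, 10 of the 13 measured probes were lower with CML EVs and 3 were higher, where 48.8% of all 19619 named probes were lower. All 5 genes with 2 measured probes had both on the same side of 0. Of the 4913 genes with 2 or more measured probes, 56.1% had all of them on the same side. That share includes genes with more than 2 probes, which meet the condition less easily, so the 2 shares are not alike. The ratio was larger than its error at 4 of the 13 probes and larger than double the error at 2, 1 of Hoxa10 and 1 of Meis1. Of all 19619 named probes, 19.0% and 3.99% were so.

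**Figure D3:**
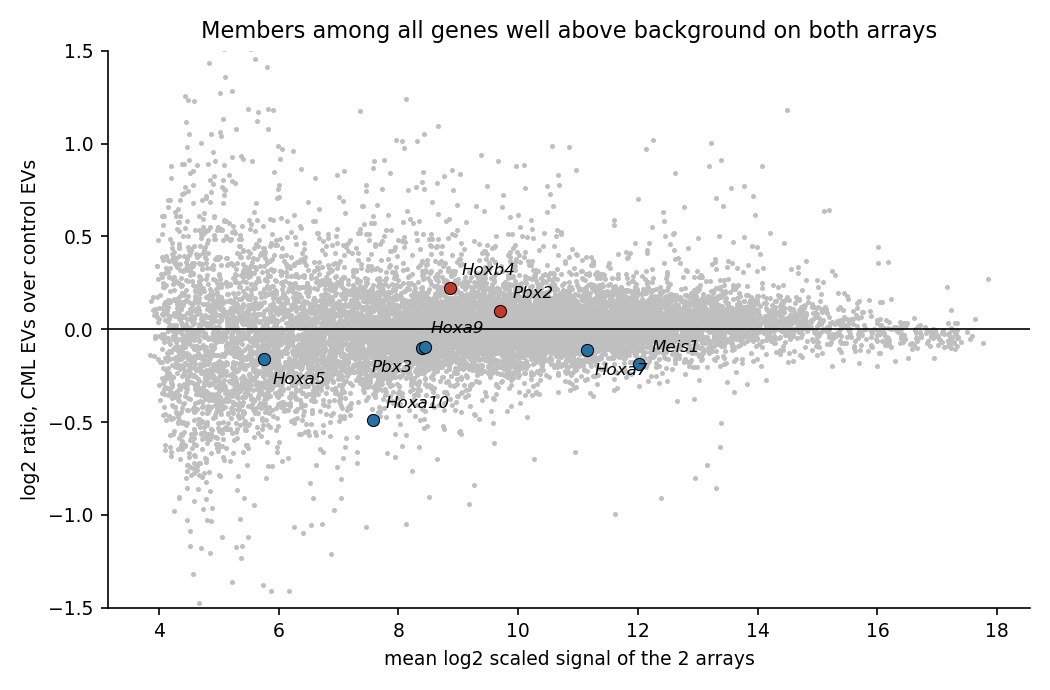
log2 ratio (CML EVs over control EVs, vertical) by the log2 scaled signal averaged over both arrays (horizontal) of 13409 genes (grey, 24 beyond the vertical axis), with the 8 measured members in color. Hoxa10 lies near the lower edge of the cloud at its signal, and the other members lie within or at its borders.

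The members sit within the wider HOX family, whose 39 mouse genes form the HOXA, HOXB, HOXC and HOXD clusters with numbered paralogues. Well above background on both arrays were 8 of 11 HOXA genes, 3 of 10 HOXB genes and none of the 9 HOXC and 9 HOXD genes, in which the highest signals were 13.9 with CML EVs and 14.9 with control EVs. Of the 11 measured HOX genes 8 were lower with CML EVs and 3 higher, where 48.0% of all genes were lower. The median of the log2 ratios of the 11 was -0.16. Besides the members these were 6 genes, of which 4 were lower and 2 higher, with a median of -0.26. That median was -0.070 with normexp and quantile normalization. With no filter on dim probes it was 0.051, over all 33 other HOX genes. Hoxa4 had 23.2 with CML EVs and 29.6 with control EVs (log2 ratio -0.35 ± 0.32), Hoxa3 had 63.9 with CML EVs and 79.6 with control EVs (-0.32 ± 0.22), and Hoxb2 had 26.3 with CML EVs and 32.1 with control EVs (-0.29 ± 0.30). Hoxb3 had a log2 ratio of -0.23 ± 0.28. On the other side, Hoxa2 had 21.9 with CML EVs and 16.1 with control EVs (0.44 ± 0.39). All 6 were dim, and Hoxa4 and Hoxa2 alone among them were past 25%, each on 1 probe. Hoxa6 was well above background with control EVs only, at 12.7 with CML EVs and 23.6 with control EVs, or at least 1.73-fold lower. Hoxa13 was well above background with CML EVs only, at 40.9 with CML EVs and 2.75 with control EVs, or at least 3.16-fold higher. Where a spot was dim, its bound uses the lowest signal above background of that array, and each rests on 1 spot per array. Gene models overlap in these clusters in the RefSeq annotation, with Hoxb4 inside Hoxb3, Hoxa4, Hoxa5 and Hoxa6 inside Hoxa3, and antisense RNAs across Hoxa5, Hoxa6 and Hoxb5.

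**Figure D4:**
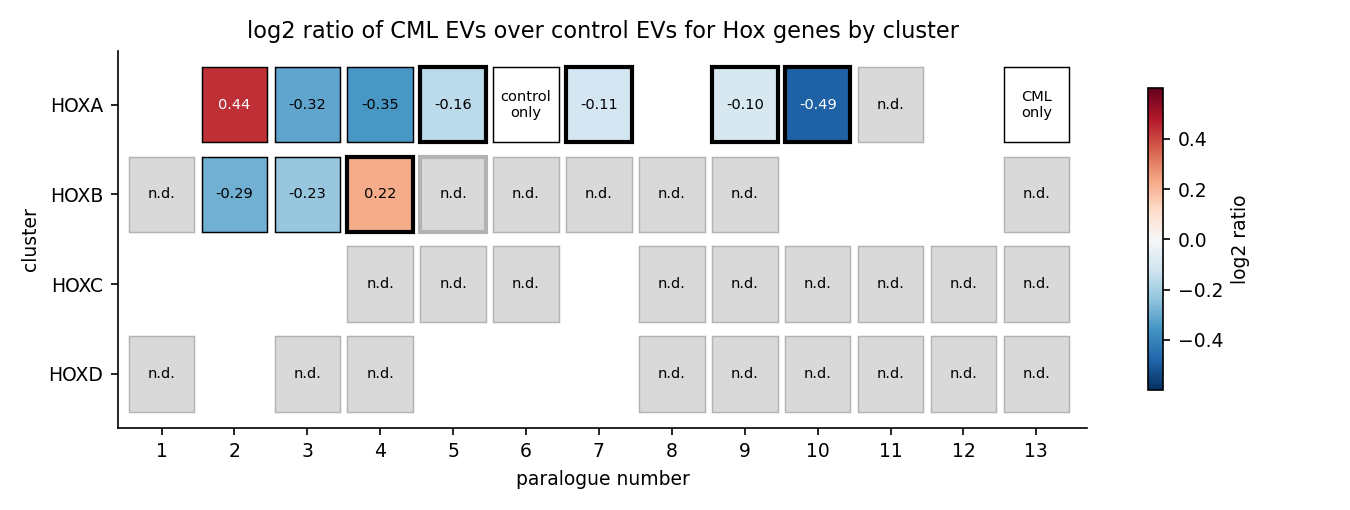
log2 ratio (CML EVs over control EVs) of HOX genes by cluster (rows) and paralogue number (columns); blue is lower and red higher with CML EVs, thick borders mark members, n.d. is not well above background on either array, and white cells were above it on 1 array only; 1 HOXA gene is not drawn. Ratios are in HOXA and HOXB alone, where 6 of 8 measured HOXA genes and 2 of 3 measured HOXB genes were lower.

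Among the other TALE genes, 6 of 8 were measured, 3 lower and 3 higher, with a median log2 ratio of -0.0033, which lay between -0.13 and 0.067 under other scalings and probe rules. Pknox2, a relative of the MEIS factors, had 85.5 with CML EVs and 37.5 with control EVs at its only probe, a log2 ratio of 1.19 ± 0.24 or 2.28-fold higher. Meis3 had a log2 ratio of -0.17 and Tgif2 of -0.07. Pbx4 was well above background with control EVs only, at least 1.24-fold lower, and Meis2 on neither array. Of the 6 measured genes Pknox2 was the only one past 25%.

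Of 21 genes that act upstream of HOX genes, such as subunits of MLL, DOT1L and Polycomb complexes, 20 were matched on the array and 17 measured, of which 9 were lower and 8 higher, with a median log2 ratio of -0.0097 (0.061 with scaling to the median spot, which raised all genes by 0.07) and none past 25% at the probe used for the gene. The largest ratios were those of the histone methyltransferase gene Ash1l at -0.23, Aff1, for a partner of MLL in fusion proteins, at 0.18, and the Polycomb genes Suz12 at 0.15 and Rnf2 at -0.10, while probes of Rnf2 ran from -0.10 to 0.23. Dot1l, for a histone methyltransferase that maintains HOX genes, had 1250 with CML EVs and 1222 with control EVs at its brighter probe, a log2 ratio of 0.03 ± 0.20, but 44.8 with CML EVs and 19.0 with control EVs at its dim probe, a log2 ratio of 1.24 ± 0.32, so that its 2 probes disagreed. Menin (Men1), the cofactor of MLL at HOX genes, had 2845 with CML EVs and 2814 with control EVs, a log2 ratio of 0.02. The CDX genes, which switch on HOX genes in the embryo, were not well above background on either array. The 17 measured genes as a group were thus close to the median of the array, where 48.0% of all genes were lower. Kmt2a, the gene of MLL itself, was the one that could not be matched, so it was not measured.

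Of 20 genes described as targets of HOXA9 or MEIS1, all were measured, with 11 lower and 9 higher and a median log2 ratio of -0.05, or 0.016 with that other scaling, and 1 was past 25%. That was the cyclin gene Ccnd1, with 71.8 with CML EVs and 96.0 with control EVs, a log2 ratio of -0.42 ± 0.22. The hypoxia factor gene Epas1 had a log2 ratio of 0.28 and the chemokine gene Ccl4 of 0.22. The cytokine receptor gene Flt3, a target of both factors, had 1095 with CML EVs and 1285 with control EVs, a log2 ratio of -0.23 ± 0.20. Myb had a log2 ratio of -0.07 and Sox4 of -0.14. Targets therefore lay on both sides of 0.

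**Figure D5:**
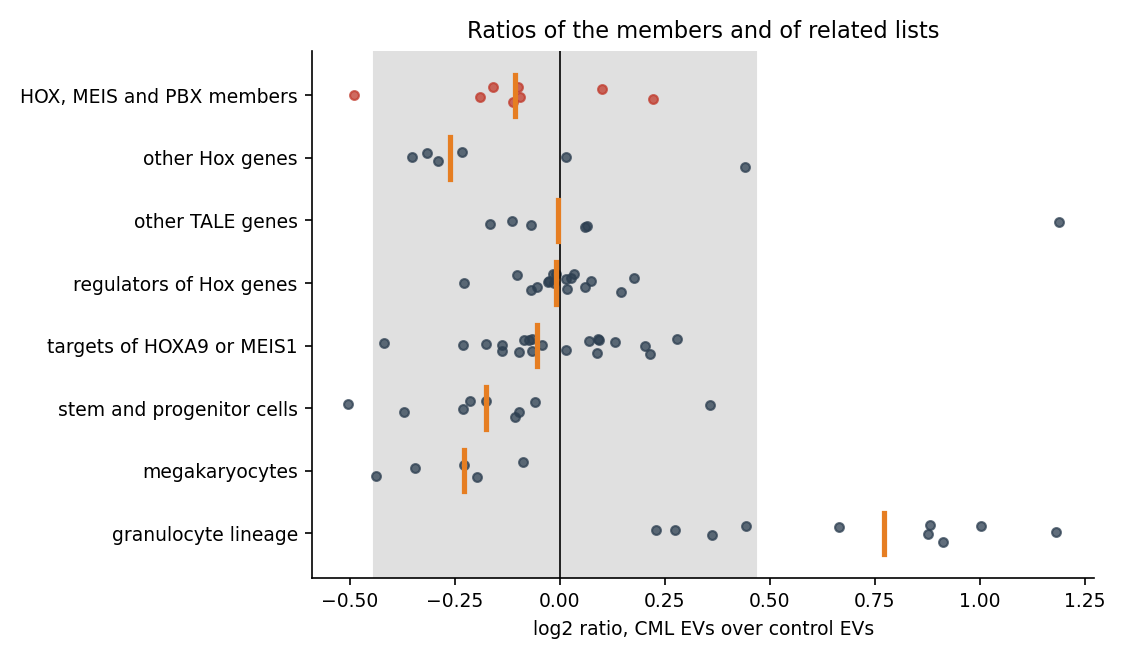
log2 ratio (CML EVs over control EVs) of each gene well above background on both arrays (points) in the HOX, MEIS and PBX members (red) and related lists (dark blue), with the median of each list (orange) and the middle 95% of all genes (grey). The members' median of -0.11 lies between those of the stem and progenitor cell list (-0.18) and of all genes (0.01), and the granulocyte list lies to the right at 0.77.

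Markers of cell types are given beside the members, each at the probe used for the gene unless stated. Of all 13409 genes 48.0% were lower and 52.0% higher, with 5.25% lower and 5.00% higher past 25%. Of 10 stem and progenitor cell markers 9 were measured, 8 lower and 1 higher with CML EVs (2 lower and 1 higher past 25%), with a median log2 ratio of -0.18 and a summed signal of 34099 with CML EVs and 37871 with control EVs; Mecom was not well above background on either array. Slamf1 had a ratio of -0.37 and Flt3 of -0.23, whereas Ly6a, the gene of Sca-1, had 0.36. All 10 granulocyte lineage markers were higher with CML EVs, 8 of them past 25%, with a median of 0.77 and a summed signal of 690382 with CML EVs and 528923 with control EVs, led by Elane (1.18), Cebpe (1.00), Ltf (0.91) and Ngp (0.88). All 5 megakaryocyte markers were lower, 2 of them past 25%, with a median of -0.23 and a summed signal of 61724 with CML EVs and 66653 with control EVs, led by Gp1bb (-0.44), Gp9 (-0.34), Itga2b (-0.23) and Vwf (-0.20). These sums are set mostly by the brightest probes of each list, such as those of Mpo, Pf4 and Cd34. In RNA of a whole culture, fewer cells of a type and less RNA per cell cannot be told apart, and the part of these markers in the ratios of the HOX, MEIS and PBX genes was not tested. Of 4 measured erythroid markers 3 were higher and 1 lower with CML EVs, with a median log2 ratio of 0.23. None was past 25% at the probe used for the gene (Car1 0.26, Klf1 0.23, Hba-a1 0.23 and Epor -0.06). Their second probes gave 0.45, 0.16, 0.27 and 0.49 in that order, those of Car1 and Epor past 25%. The other markers measured, none of them past 25% at the probe used for the gene, had log2 ratios as follows: Cd3d and Cd3e of T cells 0.32 and -0.07, Cd79b of B cells 0.03, Cd68, Csf1r and Adgre1 of macrophages 0.11, 0.05 and 0.02, and Pdpn of stroma -0.05. Second probes gave 0.40 for Cd3d, past 25%, 0.22 for Cd3e, 0.18 for Cd68 and -0.06 for Csf1r. Cd79a and Ms4a1 of B cells, Cd3g of T cells, and Cdh5, Col1a1 and Tlx1 of spleen stroma were not well above background on either array.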

How the data were processed

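The authors deposited 1 Agilent scanner file per sample (Feature Extraction 12.0.3.1, per the submitters' processing notes), with a background-subtracted intensity, its error and flags for 59305 spots other than controls, and a table of the same intensity times 1 factor per array. Well above background were 53.3% of spots with CML EVs and 54.4% with control EVs; none was saturated. As in the methods, signals were multiplied by 1 factor per array so that the mean was 2500 after trimming 2% of the spots at either end, and of several probes of a gene the highest with CML EVs was used. Outlier spots were left out (88 with CML EVs and 95 with control EVs). Probes were named through RefSeq accessions (32994 of 56604 named, 23610 not), since the files have no gene names. The array design refers to mm9, the promoter table to GRCm38.p6. The number of arrays limits the precision.

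Members and lists were chosen with earlier results of these data known. Past 25% means a fold of at least 25% over 1, in either direction. Named were all members, with every probe, and of each list the 4 with the largest ratio; a few further genes (Hoxb3, Men1, Dot1l, Mpo, Pf4, Cd34, Myb, Sox4) were named after their values were seen, and some genes that the rule names are not reported here. The steps were checked on arrays simulated with known ratios and with noise smaller than the scanner's error, which checks the calculation alone. Python 3.11.15, pandas 2.3.3, R 4.3.3 and limma 3.58.1 (normexp, offset 50) were used.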

Additional observations from a re-analysis of the deposited data

How the results depend on the processing

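No paired analysis was possible because there was only 1 array for CML EVs and 1 for control EVs, and no replicate could be left out. Over 11 alternatives for each of the 8 measured genes none changed its sign, but 5 of the alternatives could not or did not change any of these ratios, and 43 of 88 ratios were identical. Of the 45 that changed, 34 moved by less than the spread of repeated spots and 11 by more; Hoxa10 ran from -0.49 to -0.31, Meis1 from -0.31 to -0.12, Hoxa9 from -0.16 to -0.03, Hoxa5 from -0.16 to -0.02 and Hoxb4 from 0.17 to 0.29. Scaling to the median of all spots raised every gene by 0.07; the medians were then -0.035 for the members, -0.19 for the other HOX genes, 0.067 for the other TALE genes, 0.061 for the HOX regulators (15 higher, 2 lower) and 0.016 for the targets. With normexp and quantile normalization no member was past 25% on the lower side (0), and the other HOX genes had a median of -0.070 with 1 higher, and the TALE genes one of 0.0095. With no filter on dim probes 1 member (Hoxb5) was past 25% on the higher side, the other HOX genes had a median of 0.051 (23 higher, 10 lower) and the regulators one of 0.015; when 1 array above background was enough, the TALE median was -0.068. Quantile normalization gave the other HOX genes -0.20; the TALE median was 0.0043 with the 75th percentile, 0.0074 with the untrimmed mean and -0.13 when all probes of a gene were averaged, and that of the regulators 0.0011 with the untrimmed mean. At 1.1-fold 3 members were lower and 1 higher, and at 1.5-fold 0. Naming by a gene symbol column was not run, since the files hold none. Apart from filters and thresholds, which alter counts by construction, the cause was not tested. Dim spots limit what Hoxa5, Hoxb5 and the other HOX genes can show.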
